A study of Mus musculus with 9 samples.

Results

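The 10 genes described here are Fos, Fosb, Egr1, Jun, Junb, Ier2, Atf3 and Cyr61, which are immediate early genes, and Hspa1a and Hspa1b, which encode the inducible form of the chaperone Hsp70. They were chosen by name, with earlier results of these data known, so their calls and ranks below are a description. A gene belongs where its symbol stands in the gene column of both deposited tables. Of the 10 genes, 8 were listed in both tables, among 11989 gene symbols in the table of KI and MUT and 12247 in the table of MUT and HET. Junb and Atf3 had no row under their symbols in either table and were not analysed.

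RNA was sequenced from E12.5 retinas (embryonic day, at which retinal neurogenesis is under way) of CD-1 mice, dissected as pairs of GFP-positive optic cups and dissociated with TrypLE Select before RNA extraction. The KI group (Neurog2GFP/Mash1KI, 3 samples) carried a Mash1 knock-in at one Neurog2 allele and GFP at the other. The MUT group (Neurog2GFP/GFP, 3 samples) carried GFP at both alleles, and the HET group (Neurog2GFP/+, 3 samples) carried GFP at one allele beside an intact one. All 9 samples thus carried at least one GFP allele at Neurog2, no group was free of it, and the labels name no cell sort. The KI samples bear the number 311 in their titles, and the MUT and HET samples bear the number 466. KI and MUT therefore differ in genotype and in title number at once, and these cannot be told apart. The values of sex-linked genes, given below, also differ between MUT and both other groups. The titles also give each sample a second number of its own, and the labels do not say what it marks. Whether samples within a group stem from different litters or embryos is not labelled. The deposited p-values thus measure only the spread between these samples, which may be technical.

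Immediate early genes are transcribed within minutes of a stimulus from factors already present in the cell, without new protein synthesis. Growth factors, membrane depolarization, mechanical strain and the enzymatic dissociation of tissue all induce them, and their short-lived transcripts fade soon afterwards. Inducible Hsp70 genes respond to heat and unfolded protein, through the heat shock factor Hsf1.

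The sequences just before the start sites are shown because the members are known for rapid control at their promoters. RefSeq promoter windows (GRCm38.p6) matched 8 of the 10 genes, Cyr61 under its current symbol Ccn1. Egr1 and Ier2 had no entry. The 250 bases before the start are printed 5′ to 3′ for the 6 genes that were called lower in KI and had a window: Fos (chr12:85473640-85473889, plus strand), Fosb (chr7:19310046-19310295, minus strand), Cyr61 (chr3:145649986-145650235, minus strand), Jun (chr4:95052223-95052472, minus strand), Hspa1a (chr17:34972157-34972406, minus strand) and Hspa1b (chr17:34959239-34959488, minus strand). Capitals mark the TATA box TATAAA, the pair of heat shock element units GAANNTTC and the core TGACG of the cyclic AMP response element, on either strand.
Fos: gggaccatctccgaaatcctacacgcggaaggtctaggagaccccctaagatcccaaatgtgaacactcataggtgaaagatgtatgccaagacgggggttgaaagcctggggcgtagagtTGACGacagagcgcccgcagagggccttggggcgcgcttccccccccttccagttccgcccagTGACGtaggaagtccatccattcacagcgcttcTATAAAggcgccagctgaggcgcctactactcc
Fosb: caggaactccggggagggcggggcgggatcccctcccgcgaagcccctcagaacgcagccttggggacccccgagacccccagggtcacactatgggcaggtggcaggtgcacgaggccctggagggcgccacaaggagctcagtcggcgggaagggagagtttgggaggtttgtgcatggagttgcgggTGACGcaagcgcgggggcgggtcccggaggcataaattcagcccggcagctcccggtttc
Cyr61: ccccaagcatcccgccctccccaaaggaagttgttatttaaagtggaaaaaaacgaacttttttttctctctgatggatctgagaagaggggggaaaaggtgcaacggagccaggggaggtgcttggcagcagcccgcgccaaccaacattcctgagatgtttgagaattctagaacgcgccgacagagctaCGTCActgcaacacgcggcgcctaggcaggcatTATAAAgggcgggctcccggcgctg
Jun: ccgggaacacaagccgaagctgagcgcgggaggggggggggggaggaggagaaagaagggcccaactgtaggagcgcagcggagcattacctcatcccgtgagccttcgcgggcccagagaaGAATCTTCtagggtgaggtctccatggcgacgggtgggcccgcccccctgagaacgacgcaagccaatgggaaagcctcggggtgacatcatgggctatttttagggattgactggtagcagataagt
Hspa1a: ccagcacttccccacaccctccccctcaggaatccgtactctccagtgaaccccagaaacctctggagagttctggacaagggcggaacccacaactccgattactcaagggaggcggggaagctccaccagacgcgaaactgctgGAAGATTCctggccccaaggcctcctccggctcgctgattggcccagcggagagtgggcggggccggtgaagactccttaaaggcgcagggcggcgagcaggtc
Hspa1b: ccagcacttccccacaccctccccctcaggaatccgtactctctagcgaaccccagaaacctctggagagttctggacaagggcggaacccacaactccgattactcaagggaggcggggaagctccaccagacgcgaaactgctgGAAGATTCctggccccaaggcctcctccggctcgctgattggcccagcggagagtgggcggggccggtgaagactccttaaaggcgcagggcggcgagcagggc

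The core TGACG stood in the windows of Fos, Fosb and Cyr61, among the 6 listed members with a window, in those of the unlisted Junb and Atf3, and in 17.8% of all 32851 windows of the same length. These letters were chosen after the windows were seen. The pair GAANNTTC stood in Hspa1a, Hspa1b and Jun, against 6.69% of all windows. The opposite arrangement, TTCNNGAA, was not searched as a pair, and it stands unmarked in the Cyr61 window as TTCTAGAA. Its share of all windows was not counted. The TATA box stood in Fos and Cyr61, against 12.4% of all windows. None of the 8 windows held the full cyclic AMP response element TGACGTCA, the AP-1 site TGACTCA, the triple heat shock element or a CArG box, which 1.55%, 4.46%, 0.466% and 1.47% of all windows held. Only exact letters were searched, and TGACATCA, a near match to TGACGTCA, stands unmarked in the Jun window. The share of windows with such near matches was not counted. Bases farther than 250 before the start were not searched. Hspa1a and Hspa1b differed at 3 of 250 bases, C44T, T47C and T249G, written with the Hspa1a base first and counted from 1 at the 5′ end. The likeness went on into the transcripts: of the 50-base stretches of the annotated Hspa1a transcript, 58.8% also occur unchanged in that of Hspa1b. Reads from those shared stretches cannot be assigned to one copy, while reads from the other stretches can, and the counts below treat them as a pair where stated. Fos and Fosb, which are paralogs, shared no 50-base stretch.

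The deposited tables hold RPKM (reads per kilobase of transcript, scaled to the mapped reads), as 1 value per transcript and group. They give no value per sample. Neither the spread between replicates nor the depth of a sample can therefore be stated. The replicate error enters only through the authors' Cuffdiff test. A gene is called here where the deposited q of one of its transcripts is 0.05 or less. In the KI and MUT table the lowest q is 0.0104, which belongs to the smallest deposited p of 5e-05, and in the MUT and HET table it is 0.0109. The MUT samples are in both tables, and the MUT value of a member in the KI table was 0.981 times that in the HET table for each of the 8 listed members. Neurog2 itself was at 112 RPKM in KI and 35.5 RPKM in MUT (q = 0.0104 in the authors' deposited table), and at 36.2 RPKM in MUT and 30.2 RPKM in HET (q = 0.993 in the authors' deposited table). Its value was thus not called lower in MUT. The labels do not say which part of Neurog2 the GFP and Mash1 alleles keep, so these values do not check the genotypes. By the marker genes retina was present in every group: all 12 retinal progenitor and ganglion cell markers were listed. Markers of other tissues were listed as well and are given below. In the retinal list, Sfrp2 and Fgf15, both made by retinal progenitors, were at 1222 and 367 RPKM in KI, 1279 and 394 RPKM in MUT, and 1027 and 336 RPKM in HET. One marker of that list, named after its values were seen, was called: Pou4f2, a ganglion cell factor, was at 70.9 RPKM in KI and 30.5 RPKM in MUT (q = 0.0104 in the authors' deposited table), and at 31.1 RPKM in MUT and 53.1 RPKM in HET (q = 0.0109 in the authors' deposited table).

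Setting KI against MUT retinas asks what a Mash1 knock-in allele does in place of one of the GFP alleles. By value, all 8 listed members were lower in KI. Of the 8 listed members, 7 were called lower and 1, Ier2, was not called, and none was called higher. Of all genes listed, 0.634% were called lower and 1.03% higher. Their summed RPKM lay between 0.421 and 14.2 in KI and between 3.74 and 31.8 in MUT. The median log2 ratio of the 8 members was -2.70, against -0.0021 over all genes of the table. For Fos, Fosb, Egr1, Hspa1a and Hspa1b the direction was fixed by the limit for listing, given below. The fall spanned a wide range, with a log2 ratio of -5.89 for Fos and of -1.13 for Jun. In bulk RNA, fewer cells that express a gene and less RNA per cell cannot be told apart.

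**Figure D1:**
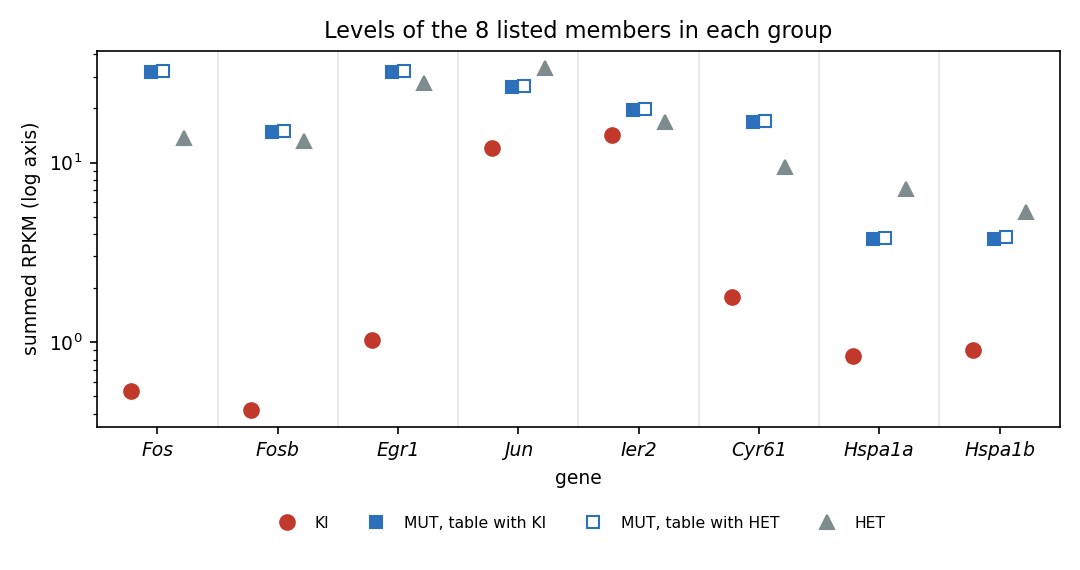
Summed RPKM of the 8 listed members (log axis) in KI, MUT and HET, with 1 group value per symbol and the MUT value of each table drawn separately; there are no error bars because the tables give no values per sample. KI is the lowest group for each of the 8 genes, by the widest margin for Fos, Fosb and Egr1 and by the narrowest for Ier2. For Fos, Fosb, Egr1, Hspa1a and Hspa1b, a KI value below that of MUT was fixed by the limit for listing.

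The Fos family stood lowest. Fos (mm10 chromosome 12, 85473890 to 85477273, 4 exons) encodes the factor that pairs with Jun to form AP-1, and its 2 listed transcripts summed to 0.536 RPKM in KI and 31.8 RPKM in MUT. The larger transcript was at 0.536 RPKM in KI and 24.0 RPKM in MUT, a log2 ratio of -5.48 (q = 0.0104 in the authors' deposited table). The other transcript was at 5.13e-05 RPKM in KI and 7.82 RPKM in MUT and was not called (q = 0.783 in the authors' deposited table). Nearly all Fos signal in KI was thus in one transcript, while MUT had both. Fosb (chromosome 7, 19302721 to 19310045, 5 exons), a paralog that also pairs with Jun proteins, had a single listed transcript at 0.421 RPKM in KI and 14.8 RPKM in MUT. Its log2 ratio was -5.13 (q = 0.0104 in the authors' deposited table). KI held 2.85% of the MUT level of Fosb and 1.69% of that of Fos. These ratios depend on how values near 0 are treated: with 1 RPKM added to both groups, the log2 ratio was -3.47 for Fosb and -4.42 for Fos.

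Jun (chromosome 4), the partner of both in AP-1, was lower in KI by far less. It was at 12.1 RPKM in KI and 26.3 RPKM in MUT, with a log2 ratio of -1.13 (q = 0.0104 in the authors' deposited table). KI thus kept 45.8% of the MUT level of Jun. The locus given for Jun runs from 95049034 to 95167318, far beyond the single exon of Jun, and takes in Junos, annotated on the opposite strand, and 3 further genes. No source used here says that counting was by strand. Reads from the stretch where the annotated spans of Jun and Junos overlap, 95051534 to 95052222, therefore cannot be told apart. The same holds for Hspa1a and Gm20481, annotated across it on the opposite strand.

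Egr1 (chromosome 18, 34859823 to 34864984), a zinc finger factor induced through the MAP kinase pathway, was at 1.03 RPKM in KI and 31.8 RPKM in MUT. Its log2 ratio was -4.94 (q = 0.0104 in the authors' deposited table), and -4.01 with 1 RPKM added. In MUT it and Fos were the highest of the 8 members, while in KI it was close to level with the heat shock members. Cyr61 (chromosome 3, 145646976 to 145649981, 5 exons) encodes a secreted matrix protein and is an early target of serum response factor and of YAP. It was at 1.79 RPKM in KI and 16.8 RPKM in MUT, a log2 ratio of -3.23 (q = 0.0104 in the authors' deposited table). Ier2 (chromosome 8, 84661331 to 84662852, 1 exon), an immediate early gene for a small nuclear protein, was at 14.2 RPKM in KI and 19.5 RPKM in MUT. Its log2 ratio of -0.46 was not called, with p = 0.00795 and q = 0.314 in the authors' deposited table. Ier2 was therefore the highest member in KI, followed by Jun, whereas Fos, Fosb and Egr1 were at or below 1.03 RPKM.

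The heat shock pair was low in both groups and lower in KI. Hspa1a (chromosome 17, 34969190 to 34972156, 1 exon) was at 0.835 RPKM in KI and 3.74 RPKM in MUT, a log2 ratio of -2.16. Hspa1b (chromosome 17, 34956436 to 34959238, 1 exon) was at 0.905 RPKM in KI and 3.77 RPKM in MUT, a log2 ratio of -2.06. With 1 RPKM added, the log2 ratios were -1.37 for Hspa1a and -1.32 for Hspa1b. For each copy the authors' deposited table gives q = 0.0104. The copies thus gave nearly the same value within each group. Summed over the pair, the level was 1.74 RPKM in KI and 7.51 RPKM in MUT, a log2 ratio of -2.11. This sum depends little on how reads were shared between the copies, whose annotated transcripts are 2967 and 2803 bases long. With the pair counted as 1 gene, an alternative chosen after seeing the data, 6 of 7 members were called lower.

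A transcript appears in this table only where its higher group reached at least 1.04 RPKM. Of the 8 members, 5 (Fos, Fosb, Egr1, Hspa1a and Hspa1b) had a KI level under that limit and were listed through their MUT level. Their direction in KI against MUT was therefore fixed by the listing limit. The count of members called lower is a description of the listed genes and not of the 10. Of the 76 genes called lower in the table, 75 had a finite log2 ratio of summed RPKM, and Rnaset2b, listed at 0 in KI, had none (it is named after its values were seen). Among those 75, ranked by that ratio, Fos, Fosb and Egr1 took the first 3 places, Cyr61 the fifth, Hspa1a and Hspa1b places 10 and 11, and Jun place 18. Among all 25591 transcripts with a log2 ratio, called or not, the larger Fos transcript stood at place 401 from the lowest. Fosb stood at 423, Egr1 at 436, Cyr61 at 675, Hspa1a at 1129, Hspa1b at 1210 and Jun at 2557. The other Fos transcript, which was not called, stood at place 1. By the authors' test statistic, a score in which noise and size both enter, the transcript of Egr1 had the lowest of 25591 values (-10.7). Fosb (-9.30), the larger Fos transcript (-7.77) and Cyr61 (-7.00) came next.

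**Figure D2:**
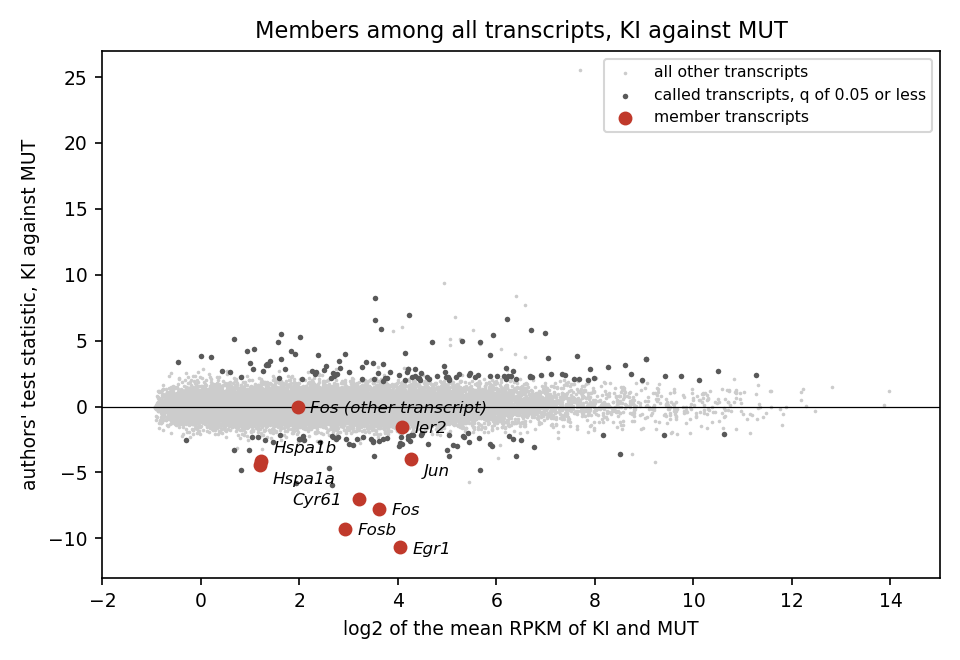
The authors' test statistic for KI against MUT (vertical axis, a score) against the log2 of the mean RPKM of KI and MUT, for the 25591 transcripts with a finite statistic; grey points are transcripts, dark points those with q of 0.05 or less, and red points the members. Egr1, Fosb, Fos and Cyr61 lie below all other transcripts, between -10.7 and -7.00, while Ier2 and the other Fos transcript lie within the main cloud.

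The comparison of MUT with HET retinas asks what GFP at both Neurog2 alleles does beside GFP at one, among samples of the same title number. Of the 8 listed members, 1 was called lower, Hspa1a, and none was called higher, against 1.09% and 0.245% of all genes. Of the 27311 transcripts of this table, Cuffdiff gave 1415 a p below 0.05 before adjustment, per the authors' deposited table. The members' summed RPKM lay between 3.81 and 32.4 in MUT and between 5.33 and 33.7 in HET. The median log2 ratio of the members was 0.21, against 0.03 over all genes.

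Hspa1a was at 3.81 RPKM in MUT and 7.14 RPKM in HET, a log2 ratio of -0.91 (q = 0.0109 in the authors' deposited table). Hspa1b was at 3.85 RPKM in MUT and 5.33 RPKM in HET, a log2 ratio of -0.47 that did not pass (p = 0.0289, q = 0.782 in the authors' deposited table). Summed over the pair, the level was 7.66 RPKM in MUT and 12.47 RPKM in HET, a log2 ratio of -0.70. Because the copies share much of their sequence, the call of one and not the other does not show that they differ.

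No immediate early member was called. By value, 5 were higher in MUT and Jun was lower. Fos summed to 32.4 RPKM in MUT and 13.7 RPKM in HET, and its larger transcript, at 24.4 RPKM in MUT and 8.69 RPKM in HET, did not pass (p = 0.035, q = 0.849 in the authors' deposited table). Cyr61 was at 17.1 RPKM in MUT and 9.40 RPKM in HET, a log2 ratio of 0.87 (p = 0.00055, q = 0.0782 in the authors' deposited table). It would be called at a threshold of 0.10. Egr1 was at 32.4 RPKM in MUT and 27.8 RPKM in HET, Fosb at 15.045 RPKM in MUT and 13.2 RPKM in HET, and Ier2 at 19.9 RPKM in MUT and 16.9 RPKM in HET. These 3 had log2 ratios of 0.22, 0.19 and 0.24 and q = 0.993 in the authors' deposited table. Jun was at 26.8 RPKM in MUT and 33.7 RPKM in HET, a log2 ratio of -0.33 (p = 0.0524, q = 0.978 in the authors' deposited table).

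Set in order over the 3 groups, KI was lowest for all 8 listed members. For Fos, Fosb, Egr1, Hspa1a and Hspa1b, a KI value below that of MUT was fixed by the listing limit. MUT was highest for 5, Fos, Fosb, Egr1, Ier2 and Cyr61, and HET was highest for 3, Jun, Hspa1a and Hspa1b. MUT and HET did not differ by the test for any but Hspa1a, and KI and MUT did not for Ier2. Neither table used here sets KI against HET. Read through the MUT values, as the sum of the log2 ratios of both tables and with no test, KI stood below HET by a median of -2.80. On that scale Fosb was at -4.94, Egr1 at -4.72 and Fos at -4.65, Hspa1a at -3.07, Hspa1b at -2.53 and Cyr61 at -2.36. Jun was at -1.46 and Ier2 at -0.23. Both comparisons share the MUT samples, so one MUT value enters both ratios, with opposite sign.

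Genes around the members were described from lists. The counts below stand against 0.634% of all genes called lower and 1.03% called higher in KI against MUT. In MUT against HET these shares were 1.09% and 0.245%. Of 20 other immediate early transcription factors and AP-1 partners, 10 were listed in the KI and MUT table and none was called; the median log2 ratio was -0.23. Egr2, a close relative of Egr1, summed over 4 transcripts to 0.817 RPKM in KI and 24.4 RPKM in MUT, and its lowest q was 0.783 in the authors' deposited table. Klf6, a zinc finger factor, was at 12.8 RPKM in KI and 15.3 RPKM in MUT. Named after their values were seen, Klf4 was at 0.837 RPKM in KI and 4.07 RPKM in MUT and Nr4a2 at 2.76 RPKM in KI and 9.89 RPKM in MUT. Also named after their values were seen, Jund, the least inducible Jun gene, was at 5.00 RPKM in KI and 5.10 RPKM in MUT, and Maff, a small Maf factor, at 2.02 RPKM in KI and 2.00 RPKM in MUT. Values within this list therefore ran from a log2 ratio of -4.90 to one of 0.02. In MUT against HET none of 10 was called (median -0.06).

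Of 28 immediate early effector genes, which include phosphatases, RNA decay factors and feedback inhibitors, 22 were listed and 3 were called lower in KI, none higher (median -0.13). Dusp1, a phosphatase that switches off MAP kinases, was at 17.9 RPKM in KI and 31.0 RPKM in MUT (q = 0.0104 in the authors' deposited table). Dusp6, which acts on ERK, was at 8.32 RPKM in KI and 13.7 RPKM in MUT (q = 0.0104 in the authors' deposited table). Zfp36, which destabilizes AU-rich mRNAs, was at 4.88 RPKM in KI and 8.91 RPKM in MUT (q = 0.0182 in the authors' deposited table). These falls, with log2 ratios of -0.79, -0.72 and -0.87, were smaller than those of the called members. In MUT against HET 1 of 22 was called, Btg2, an antiproliferative gene, at 40.9 RPKM in MUT and 63.4 RPKM in HET (q = 0.0109 in the authors' deposited table).

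Of 15 genes of the CCN family of Cyr61 and targets of YAP and serum response factor, 7 were listed and 2 were called lower in KI (median -0.22). Ctgf, the closest relative of Cyr61 in the list, was at 2.69 RPKM in KI and 5.31 RPKM in MUT, and Ajuba, a LIM protein that binds the YAP kinases, at 10.7 RPKM in KI and 16.6 RPKM in MUT. For each the authors' deposited table gives q = 0.0104. In MUT against HET none of 9 was called (median 0.26). All 25 kinases and factors upstream of immediate early genes were listed, and none was called in either comparison (median -0.05 for KI against MUT and -0.04 for MUT against HET). The most abundant, Nras and Mapk3, were at 222 and 113 RPKM in KI and at 174 and 116 RPKM in MUT.

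Of 23 heat shock factors, chaperones and cochaperones, 22 were listed, none was called lower in KI and 1 was called higher, and 16 had a higher and 6 a lower summed RPKM (median 0.23). The call was Dnaja1, an Hsp40 cochaperone, which summed to 543 RPKM in KI and 370 RPKM in MUT (q = 0.0463 for the called transcript in the authors' deposited table). In MUT against HET 1 of 22 was called lower, Dnajb1, the Hsp40 induced by heat, at 41.7 RPKM in MUT and 71.6 RPKM in HET (q = 0.0109 in the authors' deposited table), and none higher (median 0.05). Dnajb1 was at 56.9 RPKM in KI and 40.9 RPKM in MUT and was not called there (q = 0.129 in the authors' deposited table). Hsf1, which drives Hspa1a, was at 31.3 RPKM in KI and 32.1 RPKM in MUT, and Hspa8, the constitutive Hsp70, at 2422 RPKM in KI and 2245 RPKM in MUT; both were named after their values were seen.

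Of 12 genes of the endoplasmic reticulum and integrated stress response, 9 were listed in the KI and MUT table and 1 was called higher, none lower (median -0.15). It was Hspa5, the Hsp70 of the endoplasmic reticulum, at 366 RPKM in KI and 242 RPKM in MUT (q = 0.032 for the called transcript in the authors' deposited table). None of 10 was called in MUT against HET (median -0.11). Of 10 genes of oxidative and metal stress, 9 were listed in the KI and MUT table and 7 in the other, with no calls (medians 0.25 and 0.17). Txnrd1 and Gclm, which act in thiol and glutathione metabolism, were at 32.99 and 16.01 RPKM in KI and at 33.6 and 22.7 RPKM in MUT.

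**Figure D3:**
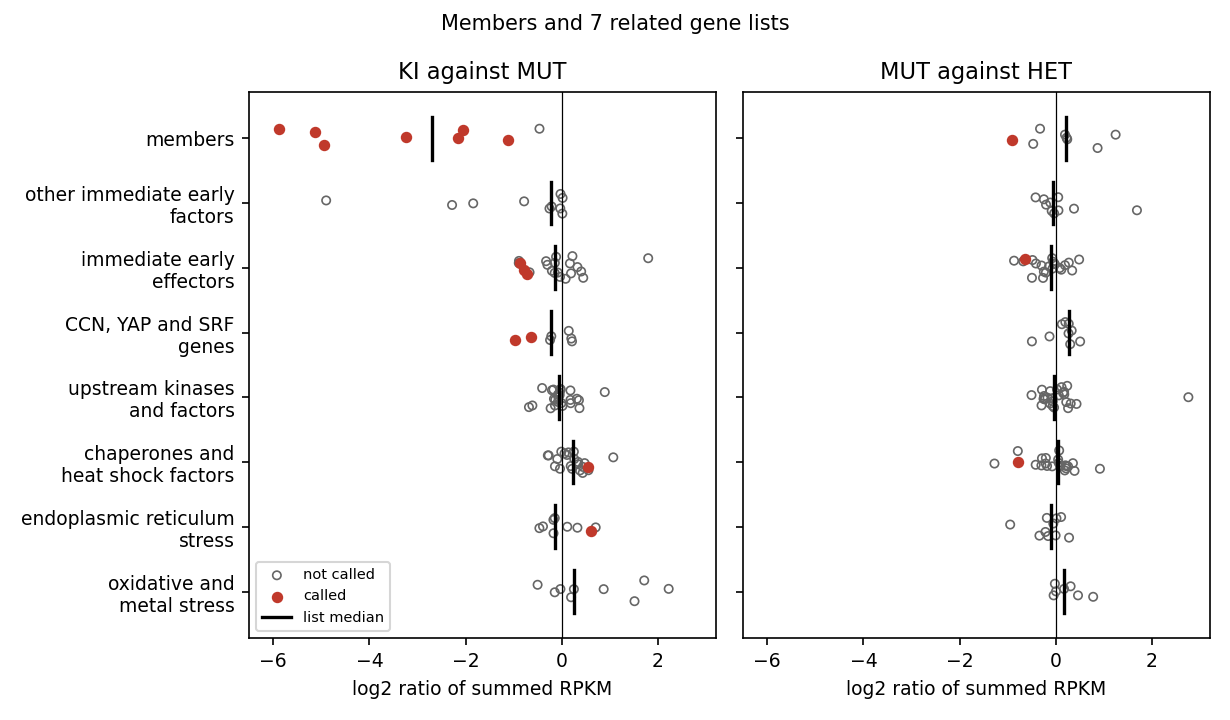
Log2 ratios of summed RPKM for the members and 7 related gene lists, KI over MUT on the left and MUT over HET on the right; each point is a gene, filled where called at q of 0.05 or less, and the bar is the list median. On the left the members have a median of -2.70, while the medians of the other lists lie between -0.23 and 0.25.

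Markers of several other tissues had higher values in KI. In the KI and MUT table all 11 listed of 12 pigment epithelium markers, 13 of 14 listed of 19 lens markers, all 7 listed of 12 red blood cell markers and all 6 listed of 11 periocular mesenchyme markers had a higher summed RPKM in KI, and 7, 3, 2 and 2 were called higher, against 1.03% of all genes. Each of these lists holds markers under 1.04 RPKM in MUT, which were listed through their KI level alone. The direction of those markers was therefore fixed by the listing limit. Over the markers in both tables, the pigment list summed to 97.2 RPKM in KI, 22.2 RPKM in MUT and 19.6 RPKM in HET, with Pmel and Dct the most abundant in KI. The lens list summed to 186 RPKM in KI, 66.5 RPKM in MUT and 93.0 RPKM in HET, led by Cryaa and Cryba1, and the lens factor Foxe3, named after its values were seen, was listed at 0 in MUT. The blood list summed to 128 RPKM in KI, 34.4 RPKM in MUT and 30.8 RPKM in HET, led by Hbb-y and Hba-x. The mesenchyme list summed to 29.2 RPKM in KI, 17.8 RPKM in MUT and 19.5 RPKM in HET, led by Col1a2 and Col3a1. The endothelial markers, Kdr and Egfl7, summed to 24.0 RPKM in KI, 29.5 RPKM in MUT and 23.3 RPKM in HET, and the macrophage marker Cd68 was at 3.61 RPKM in KI, 4.74 RPKM in MUT and 11.2 RPKM in HET. No sex-linked gene was called in either comparison. Eif2s3y summed to 28.6 RPKM in KI and 21.9 RPKM in HET and was listed at 0 in MUT, as was Kdm5d (named after its values were seen). Also named after their values were seen, Ddx3y summed to 8.81 RPKM in KI, 0.0102 RPKM in MUT and 4.555 RPKM in HET. Uty summed to 9.44 RPKM in KI, 0.0165 RPKM in MUT and 3.48 RPKM in HET. Xist summed to 174 RPKM in KI, 496 RPKM in MUT and 184 RPKM in HET. Sex-linked values thus differed between MUT and both other groups alongside genotype, and these cannot be told apart in either comparison. The part of the marker and sex-linked values in the lower level of the members was not tested.

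The genes whose pattern was most like that of the members were sought among 9112 genes with at least 5 RPKM in MUT, by the distance of their log2 ratios in both comparisons from the member medians, that is over 3 group values each. The nearest 8 were Racgap1, Snora57, Mir29c, Snora34, Snora44, Ackr1, Wdr86 and Disp1, at distances of 0.375 to 1.17. Of these only Racgap1 was called in KI against MUT, through 1 of its 6 listed transcripts. For that transcript the log2 of the mean RPKM of KI and MUT was 4.04. The sum over all 6 was 63.5 RPKM in KI and 459 RPKM in MUT. Most of the summed fall thus lay in transcripts that were not called.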

How the data were processed

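RNA from 9 retinal samples was compared in groups of 3, taken from the labelled titles. Bowtie2, Cufflinks and Cuffdiff, with the mm10 build, are named in the submitters' processing notes, while their versions, the strand setting and the annotation were not given in the sources used here. In 2 tables the authors deposited 1 RPKM value per transcript and group, with a log2 fold change, a p-value, a q-value and, per the file headers, a test statistic, which is a score. Each value stands for a whole group, so no depth or spread per sample is known.

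RPKM was summed by symbol, and log2 ratios were recomputed without a pseudocount; they matched the deposited log2 values to within 0.0018. The deposited q equalled the Benjamini-Hochberg adjustment over all rows of a table. Starts of loci were raised by 1, since the deposited ones count from 0 against GENCODE M21. Rows whose symbol had become a date (55 and 57) or was empty (117 and 116) stayed out of gene counts. The adjustment and the gene ratios were tested on simulated data with a single transcript per gene, so the summing of several transcripts was not tested. Python 3.11.15 and pandas 2.3.3 were used.

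The members and lists were chosen with earlier results of these data known. Named were all members; at most 4 called genes per list (without calls, the 2 highest in RPKM); the 2 most abundant of each marker list; Neurog2; and the 8 genes of nearest pattern. Genes outside this rule are marked in the text as named after their values were seen. Alternatives changed the filter, threshold, pseudocount, centring, transcript and scaling.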

Additional observations from a re-analysis of the deposited data

How the results depend on the processing

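The count of 7 members called lower in KI against MUT was 7 with rows of at least 1 RPKM, at a q of 0.10 and with the most abundant transcript only. It was 5 of the 6 members left with rows of at least 5 RPKM, and 6 of 7 with the heat shock pair as 1 gene. For MUT against HET, 2 members were called at a q of 0.10 (Hspa1a lower and Cyr61 higher), against 1 at 0.05. Adding 1 RPKM brought the KI against MUT median of the members to -2.02, with Fos at -4.42, Fosb at -3.47, Egr1 at -4.01, Hspa1a at -1.37 and Hspa1b at -1.32. With genes of at least 5 RPKM only, the KI against MUT medians became -0.52 for the immediate early factors, -0.037 for the CCN, YAP and SRF list and -0.016 for endoplasmic reticulum stress, and that of oxidative stress turned to -0.028; the CCN, YAP and SRF list then had 1 call. These changes come with fewer genes in each list. Of 64 single-gene ratios under 4 settings, 14 moved by over 0.1 on the log2 scale and none changed sign. The KI to HET median without scaling between tables was -2.83. No replicate could be left out, and no paired analysis was possible because the tables hold 1 value per group. No depth is known, so the limit it sets on values near 1 RPKM was not measured.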
